A study of Mus musculus with 95 samples.

Results

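A set of 7 genes that mark the cholinergic neurons of the basal forebrain was followed through the cerebral cortex of Huntington's disease knock-in mice: Chat, Slc5a7, Slc18a3, Slc10a4, Lhx8, Gbx1 and Ngfr. They were taken by name from the gene tables, in which Ensembl identifiers were paired with symbols, and 6 of the 7 had a row among the 39179 genes. Slc18a3 was not analysed here. All 6 measured genes passed the filter on low counts. The study sequenced messenger RNA of C57BL/6 mice that were heterozygous for a huntingtin allele with 20, 50, 92 or 140 CAG repeats (lines Q20, Q50, Q92 and Q140), and of wild-type mice, at 6 and 10 months of age. The wild types shared cages with Q20 or with Q50 mice. Cages of Q92 or Q140 mice held that line only. At each age every one of these 6 line and housing groups held 4 libraries from females and 4 from males, except for 3 from Q140 males at 10 months, which gave 95 libraries (48 at 6 months and 47 at 10). The labels number the libraries and do not say that each is a separate animal, so a p-value speaks of the spread among libraries, which may be technical. Each line is 1 mouse line, and for Q92 and Q140 the line and its cages cannot be told apart. The leading numbers in the names of samples form separate runs for 6 and 10 months. Age and any difference in handling between those runs cannot be told apart either.

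Cholinergic neurons of the basal forebrain lie in the medial septum, the diagonal band, the ventral pallidum and the nucleus basalis, below the cortex, and send their axons to the cortex and hippocampus. They make acetylcholine with choline acetyltransferase (Chat), load it into vesicles with the carrier encoded by Slc18a3 and take choline back up at their terminals with the high-affinity transporter encoded by Slc5a7. Slc10a4 encodes an orphan solute carrier of synaptic vesicles in cholinergic and monoaminergic neurons. Lhx8 encodes a LIM-homeodomain factor that mouse basal forebrain and striatal cholinergic neurons need in development, and Gbx1 a homeobox factor of ventral forebrain precursors. Ngfr encodes the low-affinity neurotrophin receptor p75, which basal forebrain cholinergic neurons keep into adulthood. In the mouse cortex itself a small class of Vip-type interneurons also expresses Chat.

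Promoter sequence is shown here because the 6 genes moved together from library to library. RefSeq (GRCm38.p6) gave a promoter for 5 of the 6 measured genes. The 250 bases before the annotated start lie at chr14:32465910-32466159 for Chat, chr17:54299035-54299284 for Slc5a7, chr3:154330561-154330810 for Lhx8 and chr11:95587699-95587948 for Ngfr, all on the minus strand, and at chr5:73006654-73006903 on the plus strand for Slc10a4. Each is written 5′ to 3′ in the direction of the gene. Capitals mark matches, on either strand, to the GC box GGGCGG or to the TATA box letters TATAAA.
Chat: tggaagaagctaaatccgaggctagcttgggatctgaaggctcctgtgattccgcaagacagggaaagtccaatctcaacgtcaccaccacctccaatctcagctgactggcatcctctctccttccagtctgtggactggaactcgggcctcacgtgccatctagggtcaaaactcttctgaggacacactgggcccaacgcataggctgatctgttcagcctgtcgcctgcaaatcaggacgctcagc
Slc5a7: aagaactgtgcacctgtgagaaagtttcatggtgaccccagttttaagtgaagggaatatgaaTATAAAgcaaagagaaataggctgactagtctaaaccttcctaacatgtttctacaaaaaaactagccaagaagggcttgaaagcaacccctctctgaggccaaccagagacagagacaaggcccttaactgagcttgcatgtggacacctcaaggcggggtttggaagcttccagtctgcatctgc
Slc10a4: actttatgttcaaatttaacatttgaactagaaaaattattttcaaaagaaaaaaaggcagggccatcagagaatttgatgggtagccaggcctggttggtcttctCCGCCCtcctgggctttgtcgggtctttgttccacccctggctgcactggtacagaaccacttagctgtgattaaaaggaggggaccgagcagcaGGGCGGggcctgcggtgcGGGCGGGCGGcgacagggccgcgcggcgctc
Lhx8: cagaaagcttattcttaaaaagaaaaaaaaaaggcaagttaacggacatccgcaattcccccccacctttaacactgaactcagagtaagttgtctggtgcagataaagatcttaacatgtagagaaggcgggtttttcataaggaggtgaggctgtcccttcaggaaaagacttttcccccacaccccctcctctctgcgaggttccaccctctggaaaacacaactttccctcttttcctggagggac
Ngfr: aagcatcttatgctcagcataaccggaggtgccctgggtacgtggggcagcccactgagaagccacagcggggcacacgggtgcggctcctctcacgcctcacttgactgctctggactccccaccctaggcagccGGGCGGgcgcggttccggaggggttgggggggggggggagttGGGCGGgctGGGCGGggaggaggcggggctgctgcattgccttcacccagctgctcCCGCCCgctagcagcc
The homeodomain letters TAATTA and TAATTG were also searched on both strands, and none of the 5 windows held either. They occurred in 4.84% and 7.17% of the 32851 mouse promoter windows of the same length. The GC box was found 4 times each in Slc10a4 and Ngfr (32.7% of all windows held it), where 2 of the Slc10a4 matches share letters, and not in the other three. Among these windows Slc5a7 alone held TATAAA (12.4% of all windows). The core TAAT, searched likewise, was found 2 times in Slc10a4 only (54.9% of all windows). No motif searched was thus common to all 5 windows, and their GC content ran from 45.6% in Slc5a7 to 70.4% in Ngfr, against a median of 52.4%.

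Libraries held 30.3 M to 41.1 M counts in total (median 34.1 M). The limit that a count of 0 allows, 3 counts, was then worth 0.073 to 0.099 CPM (counts scaled to a library size of 1 M). Such limits cover counting error only. Mitochondrial transcripts held 9.08 to 14.7% of the counts, with 2 libraries over 13% (a Q50 female and a Q92 male at 6 months). Htt, the gene that the knock-in changes, was read at 130 to 257 CPM (median 227) in every library, which says nothing of the repeat length. The cortical label was borne out by Slc17a7, the vesicular glutamate transporter of cortical projection neurons, at 746 to 1180 CPM, and by Tbr1 at 95.6 to 148 CPM. Values after ± are standard deviations (SD) for CPM and standard errors (SE) for log2 fold changes. In bulk tissue, fewer cells of a type and less RNA per cell cannot be told apart.

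All 6 genes were scarce transcripts in this tissue. Per length, the median over the 95 libraries was 0.754 FPKM for Slc5a7, 0.572 for Ngfr, 0.503 for Chat, 0.392 for Lhx8, 0.329 for Slc10a4 and 0.134 for Gbx1. Levels within a gene varied far more than that. Chat ran from 0.156 CPM, in a Q140 male at 6 months, to 6.13 CPM, in a Q20 male at 10 months, a 39.3-fold range over 6 to 214 counts. Slc5a7 ran from 0.674 to 15.2 CPM, a 22.6-fold range, and Ngfr from 0.713 to 6.22 CPM, an 8.72-fold range. Ngfr was thus the member with the narrowest range. Slc10a4 had between 0.0283 and 4.89 CPM and Gbx1 between 0.0256 and 2.23 CPM, with 3 or fewer counts in 11 and 10 libraries. Lhx8, the only member with libraries at 0, had no count in 14 of the 95 and at most 4.03 CPM. Chat was under 1 CPM in 44 libraries, Slc10a4 in 45, Lhx8 in 55 and Gbx1 in 63, against 8 for Slc5a7 and 4 for Ngfr.

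The low libraries were not spread evenly over the groups. The 8 wild types of the Q20 cages had between 2.27 and 5.09 CPM of Chat at 6 months (median 4.06), and the 8 housed with Q50 between 1.38 and 3.20 CPM (median 2.14). None of these 16 was under 1 CPM. Q20 mice of that age had 0.803 to 5.49 CPM (median 3.22) with 1 female under 1 CPM, and Q50 mice 0.299 to 2.90 CPM (median 1.02) with 4 of 8 under it. All 8 Q92 libraries lay between 0.197 and 0.626 CPM (median 0.382), and all 8 Q140 libraries between 0.156 and 0.875 CPM (median 0.386). At 10 months the picture was another one. The 8 wild types housed with Q20, the highest group at 6 months, now lay between 0.184 and 0.916 CPM (median 0.373). Wild types housed with Q50 spread from 0.379 to 5.55 CPM (median 2.34), Q20 mice from 0.315 to 6.13 (median 2.29), Q50 mice from 0.993 to 5.14 (median 2.54), Q92 mice from 0.281 to 4.83 (median 0.483) and Q140 mice from 0.284 to 4.86 CPM (median 2.08). In these 5 groups libraries as low as those of Q92 and Q140 mice at 6 months stood beside libraries as high as the 6-month wild types, except in Q50 mice, whose lowest library had 0.993 CPM.

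**Figure D1:**
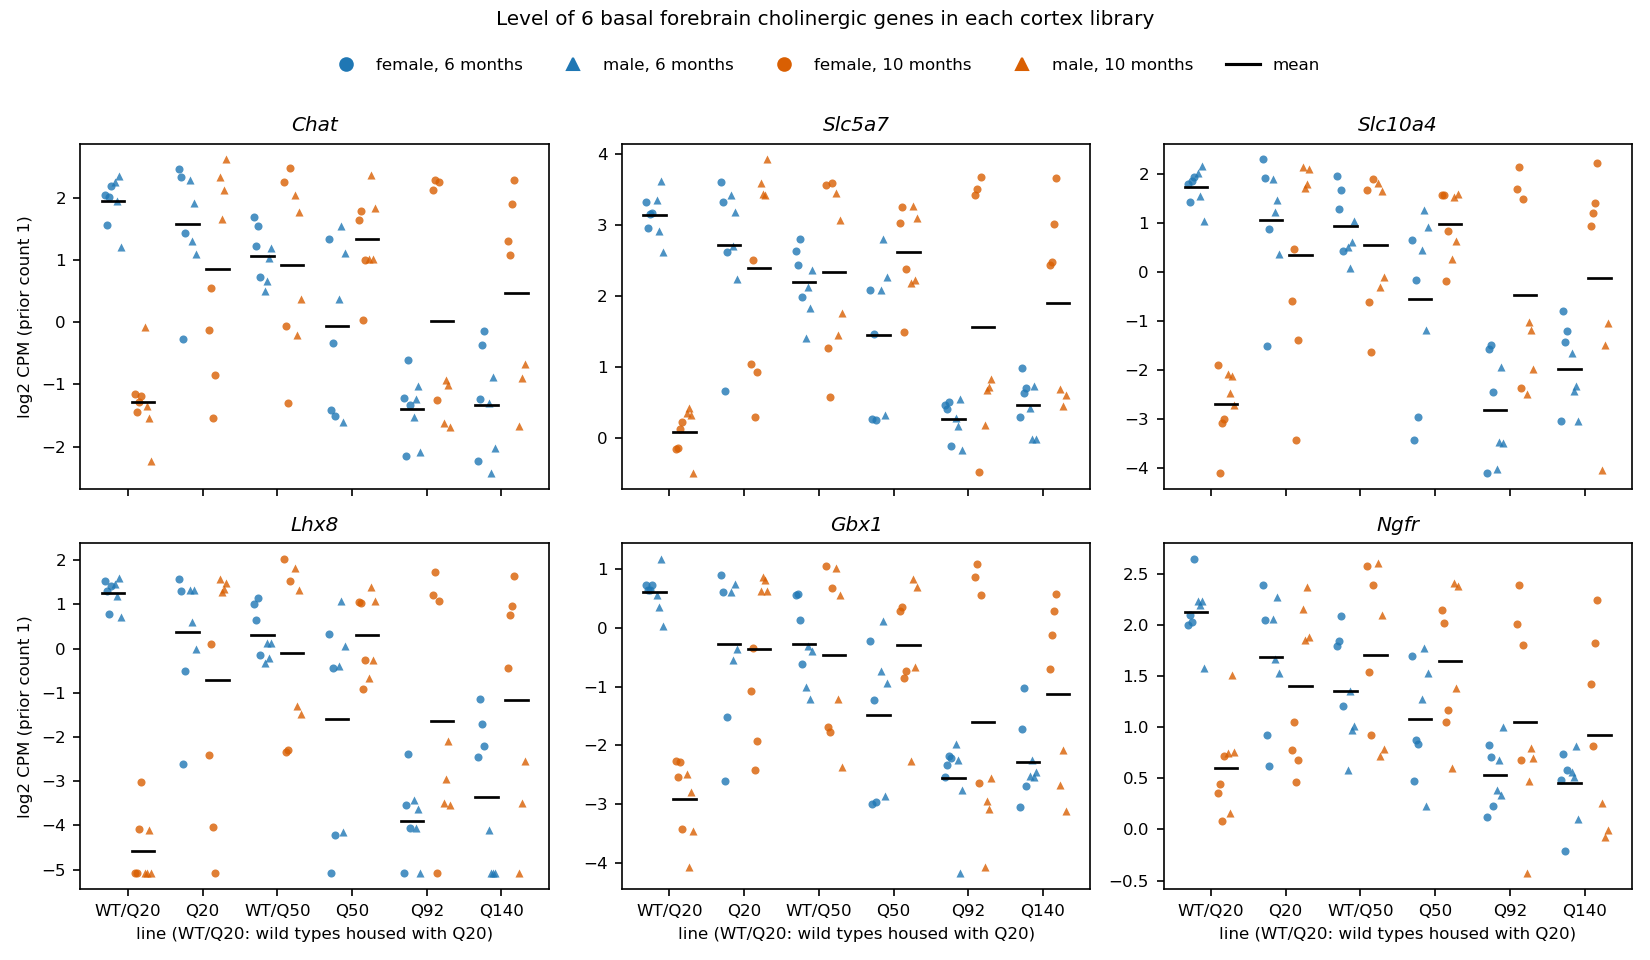
Each point is 1 library, with the log2 CPM of the gene named above the panel on the y axis (prior count of 1, so that libraries with no Lhx8 count form the lowest row) and the 6 line and housing groups on the x axis. Colour gives the age, the shape gives the sex and the black bar the mean of a group. In all 6 panels the Q92 and Q140 libraries at 6 months and the wild types housed with Q20 at 10 months lie low, while several 10-month groups hold both high and low libraries.

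The order of the 12 groups of line and age was close to the same for every member. The wild types housed with Q20 at 6 months had the highest median for all 6 genes: 4.06 CPM for Chat, 8.94 for Slc5a7, 3.51 for Slc10a4, 2.54 for Lhx8, 1.54 for Gbx1 and 4.40 for Ngfr. The same housing group at 10 months had the lowest median for Chat, Slc5a7 (1.10 CPM), Lhx8 (0 CPM, with no count in 5 of 8 libraries) and Gbx1 (0.128 CPM). Q92 mice at 6 months were lowest for Slc10a4 (0.107 CPM) and Q140 mice at 6 months for Ngfr (1.42 CPM). Of the 11 pairs of neighbours in each order all overlapped, for each gene, so only groups further apart can be told from each other by their ranges. Medians of FPKM gave the same order as those of CPM for Chat, Slc5a7 and Slc10a4, and nearly the same for the others (Spearman's rho of 0.993 over the 12 groups).

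Within a library the members went together. Over the 95 libraries the log2 CPM of Chat and Slc5a7 had a Pearson r of 0.97, which was 0.97 at either age. The 15 pairs of members had r between 0.84 and 0.97, lowest for Ngfr with Lhx8 and with Slc10a4. Of the deviations from the 24 means of line, age and sex, r was still 0.91 for Chat with Slc5a7 and between 0.66 and 0.91 for the 15 pairs. So libraries of the same line, age and sex that were high in 1 member were high in the others too. These are descriptions: the members share the library, its depth and its dissection, and the values fall into a low and a high cloud.

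**Figure D2:**
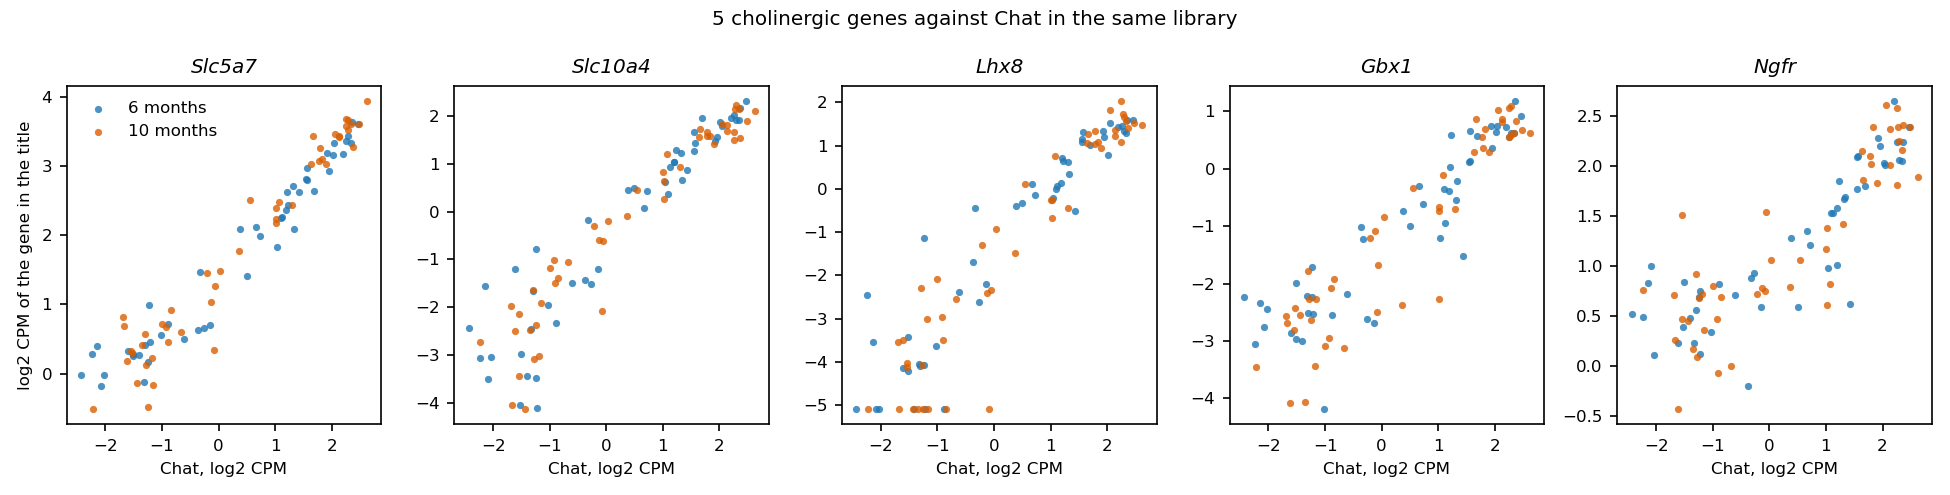
Each point is 1 of the 95 libraries, with the log2 CPM of Chat on the x axis and that of the gene above the panel on the y axis (prior count of 1), coloured by age. All 5 genes follow Chat, with r of 0.97 for Slc5a7, 0.95 for Slc10a4, 0.94 for Lhx8, 0.92 for Gbx1 and 0.86 for Ngfr, and the lowest Lhx8 row is the libraries with no count.

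Other genes followed the mean log2 CPM of the 6 members as closely. Among the 10 with the highest Pearson r over the 95 libraries were AI606473 (0.964), Gpr149 (0.960), Tac1 (0.952), Cacna2d2 (0.939), Isl1 (0.936), Nts (0.935), Drd3 (0.933), Tacr1 (0.930) and Slc35d3 (0.929). Isl1 encodes a LIM-homeodomain factor of striatal and basal forebrain neurons. Tac1 encodes the precursor of substance P, made in striatal projection neurons, and Drd3 a dopamine receptor of the ventral striatum. Within 6 months and within 10 months the r of these 10 genes was 0.92 or more. Taken singly, Chat, Slc5a7 and Slc10a4 were closest to Tac1 (r of 0.952, 0.956 and 0.936), Lhx8 to AI606473 (0.948), and Gbx1 and Ngfr to Cacna2d2 (0.920 and 0.886), which encodes a calcium channel subunit. Cacna2d2 was abundant, at 31.2 to 73.3 CPM, while AI606473 never passed 1.13 CPM.

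All 6 genes were lower in Q92 mice than in wild types at 6 months. Of the 6, 6 were called at an adjusted p under 0.05 (edgeR's quasi-likelihood test, Benjamini-Hochberg over 17716 genes), where 4.53% of all genes were called lower. The enzyme and transporter genes had these values. Chat averaged 0.372 ± 0.14 CPM in the 8 Q92 libraries against 3.05 ± 1.2 CPM in the 16 wild types, a log2 change of -2.95 ± 0.39 (adjusted p = 1.6e-06). Slc5a7 ran from 0.854 to 1.44 CPM (median 1.24) in Q92 mice, from 6.11 to 12.3 (median 8.94) in wild types housed with Q20 and from 2.62 to 6.95 (median 4.72) in those housed with Q50, and fell by 2.45 ± 0.31 (adjusted p = 8.6e-07). For Slc10a4 the Q92 libraries lay between 0.0286 and 0.326 CPM, below the lowest wild type at 1.03 CPM, with a fall of 4.06 ± 0.51 (adjusted p = 8.6e-07). None of these 3 genes had a Q92 library within the range of the wild types.

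The transcription factor genes were close to the detection limit in Q92 mice. Lhx8 had no count in 2 of 8 Q92 libraries and at most 0.163 CPM, against 0.765 to 2.98 CPM in the 16 wild types. It fell by 5.03 ± 0.65 (adjusted p = 8.6e-07), a fold that rests on 0.0495 ± 0.052 CPM. Gbx1 ran from 0.0256 to 0.224 CPM, below the lowest wild type at 0.404 CPM, and fell by 2.91 ± 0.42 (adjusted p = 4.8e-06). Ngfr, the receptor gene, had the smallest fall, 1.25 ± 0.21 (adjusted p = 4.2e-05), from 3.55 ± 1.3 to 1.45 ± 0.32 CPM. Its Q92 range of 1.06 to 1.97 CPM overlapped that of the wild types housed with Q50, 1.47 to 4.23 CPM. Ranges therefore did not overlap for 5 of 6 genes, against 0.561% of all genes in the same direction. All 6 genes were called in females alone and in males alone (1.61% and 1.88% of all genes were called lower).

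Q140 mice at 6 months gave nearly the same values, compared with the same wild types. Again 6 of 6 genes were called lower, where 2.13% of all genes were. Chat fell by 2.77 ± 0.38 (0.432 ± 0.26 CPM, adjusted p = 1.2e-05) and Slc5a7 by 2.24 ± 0.30 (1.39 ± 0.35 CPM against 6.87 ± 2.7, adjusted p = 1.0e-05). Slc10a4 fell by 3.33 ± 0.46 (adjusted p = 1.3e-05) and lay between 0.0914 and 0.548 CPM. The factor genes Lhx8 and Gbx1 fell by 3.73 ± 0.54 (adjusted p = 1.4e-05) and 2.54 ± 0.40 (adjusted p = 4.2e-05). Lhx8 was without a count in 3 of 8 libraries and reached 0.426 CPM, and Gbx1 reached 0.465 CPM, just inside the wild-type range. Ngfr fell by 1.33 ± 0.21 (adjusted p = 5.0e-05) to 1.37 ± 0.30 CPM. Chat, Slc5a7, Slc10a4 and Lhx8 did not overlap between Q140 mice and wild types (0.147% of all genes did not overlap in this direction). In females alone none of the 6 was called (Chat -2.51 ± 0.56, adjusted p = 0.11), with 0% of all genes called lower there, while in males alone all 6 were, with 1.14% of all genes (Chat -3.09 ± 0.50, adjusted p = 0.0033).

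The shorter repeats gave no call at 6 months. In Q20 mice the 6 log2 differences from the wild types of their cages lay between -0.23 ± 0.26 (Chat) and -0.56 ± 0.28 (Gbx1), each with an adjusted p of 1, and 0.00564% of all genes were called lower. In Q50 mice they lay between -0.26 ± 0.22 (Ngfr) and -0.96 ± 0.39 (Slc10a4) with adjusted p of 0.80 or more, and 0% of all genes were called lower. Q50 libraries were split, from 0.0633 to 2.38 CPM of Slc10a4 and from 1.16 to 6.99 CPM of Slc5a7. Over the 4 knock-in lines, 6 of 6 genes fell with the repeat length (1.35% of all genes). Per 100 repeats Chat fell by 3.09 ± 0.42 (adjusted p = 7.3e-05), Lhx8 by 4.17 ± 0.64 (adjusted p = 0.00012) and Ngfr by 1.18 ± 0.19 (adjusted p = 0.00038). Q92 and Q140 mice were level in Chat, with medians of 0.382 and 0.386 CPM, so the slope does not stand for an even grading, and none of the 6 was called in females alone (Chat -2.81 ± 0.67, adjusted p = 0.25), nor was any gene (0%).

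At 10 months the order of the groups was another, and wild types from the Q20 cages had the lowest median of that age for all 6 genes. The 8 wild types housed with Q20 were compared with the 8 housed with Q50, and 6 of 6 genes were lower in the former (3.63% of all genes). Slc5a7 lay between 0.674 and 1.3 CPM (median 1.10) in the former and between 1.46 and 12.1 CPM (median 5.86) in the latter, a log2 difference of -2.66 ± 0.69 (adjusted p = 0.016). Chat differed by -2.65 ± 0.79 (adjusted p = 0.034), with ranges that overlapped. Slc10a4 was at 0.0283 to 0.238 CPM against 0.291 to 3.67 CPM (-3.79 ± 0.99, adjusted p = 0.016). Lhx8 had no count in 5 of 8 libraries and at most 0.0948 CPM, against 0.169 to 4.03 CPM (-6.28 ± 1.4, adjusted p = 0.0047). Gbx1 and Ngfr differed by -3.10 ± 0.86 (adjusted p = 0.023) and -1.24 ± 0.39 (adjusted p = 0.047), with overlapping ranges. The 3 genes without overlap stand beside 0.492% of all genes. The number called fell to 3 without WTwithQ50_10mo_Female replicate 1 or without WTwithQ50_10mo_Male replicate 1, and none of the 6 was called in females alone (0.548% of all genes were called lower) or from log2(FPKM + 1) with limma (3.66%).

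At 6 months the medians of the same housing groups stood the other way round, without a call. Each of the 6 genes was above the median of the wild types housed with Q50 in all 8 libraries of the wild types housed with Q20. How many of all genes did so was not counted, and the 6 went together within a library. The log2 differences lay between 0.70 ± 0.31 (Slc10a4, adjusted p = 0.54) and 0.92 ± 0.26 (Slc5a7, adjusted p = 0.19), and none was called (0.0508% of all genes were called higher). Between the ages, the wild types housed with Q20 fell in 6 of 6 genes, where 5.27% of all genes fell. Libraries of the ages may be different batches, so these falls cannot be set down to age alone. Chat went from 3.94 ± 0.94 to 0.416 ± 0.22 CPM (a log2 change of -3.24 ± 0.59, adjusted p = 7.7e-05), and Slc5a7 from 8.98 ± 1.9 to 1.05 ± 0.22 CPM (-3.10 ± 0.53, adjusted p = 2.2e-05). Slc10a4 fell from 3.36 ± 0.78 to 0.141 ± 0.071 CPM, Lhx8 from 2.40 ± 0.51 to 0.0191 ± 0.033 CPM and Gbx1 from 1.53 ± 0.35 to 0.114 ± 0.057 CPM, with adjusted p of 1.1e-05, 4.6e-06 and 3.8e-05. Ngfr fell from 4.42 ± 0.92 to 1.56 ± 0.57 CPM (-1.50 ± 0.31, adjusted p = 0.00059). None of the 6 overlapped between the ages (1.97% of all genes in this direction). In the wild types housed with Q50 no member was called between the ages (Chat 0.28 ± 0.45, adjusted p = 0.72), while 7.51% of all genes rose there and 11.4% fell.

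Q20 mice at 10 months were compared with these low wild types of their own cages. Of the 6 genes, 5 were called higher, where 2.56% of all genes were. The Q20 libraries had 1.20 to 15.2 CPM of Slc5a7 (median 8.18), against at most 1.3 CPM, a rise of 2.88 ± 0.68 (adjusted p = 0.021). Chat rose by 2.74 ± 0.78 (adjusted p = 0.039), Slc10a4 by 3.97 ± 0.97 (adjusted p = 0.021), Gbx1 by 3.13 ± 0.86 (adjusted p = 0.035) and Lhx8 by 6.10 ± 1.4 (adjusted p = 0.019), the last against 0.0191 ± 0.033 CPM. Ngfr differed by 0.92 ± 0.41 (adjusted p = 0.18). In all 6 genes the ranges overlapped. None of the 6 was called with a factor for the code after the letter L in the names of samples, from log2(FPKM + 1) with limma (0.932% of all genes were called higher) or without Q20_10mo_Male replicate 4, and 2 were called without Q20_10mo_Male replicate 1 or 2. The number was 3 without Q20_10mo_Male replicate 3, WTwithQ20_10mo_Female replicate 4, WTwithQ20_10mo_Male replicate 2 or WTwithQ20_10mo_Male replicate 4. None of the 6 was called in females alone, where 0.00577% of all genes were called higher. In males alone 5 were, with 7.13% of all genes, and Chat rose by 3.39 ± 0.52 (adjusted p = 0.00058).

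The other lines were not called at 10 months. In Q50 mice the differences lay between -0.26 ± 0.56 (Lhx8) and 0.10 ± 0.55 (Slc10a4), each with an adjusted p of 1 (0.0505% of all genes were called higher and 0.00561% lower). In Q92 mice they lay between 0.04 ± 0.34 (Ngfr, adjusted p = 0.97) and 2.38 ± 1.1 (Lhx8, adjusted p = 0.31), where 0.707% of all genes were called higher. In Q140 mice they lay between -0.10 ± 0.37 (Ngfr, adjusted p = 0.94) and 2.45 ± 1.1 (Lhx8, adjusted p = 0.32), where 0.477% were called higher. Against the wild types housed with Q20 alone, 3 of the 6 genes were called higher in Q92 mice (4.59% of all genes) and 2 in Q140 mice (2.85%). The CAG slope at 10 months was not called for any of the 6 (Chat -0.48 ± 0.49, adjusted p = 0.73), where 0.613% of all genes were called lower.

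**Figure D3:**
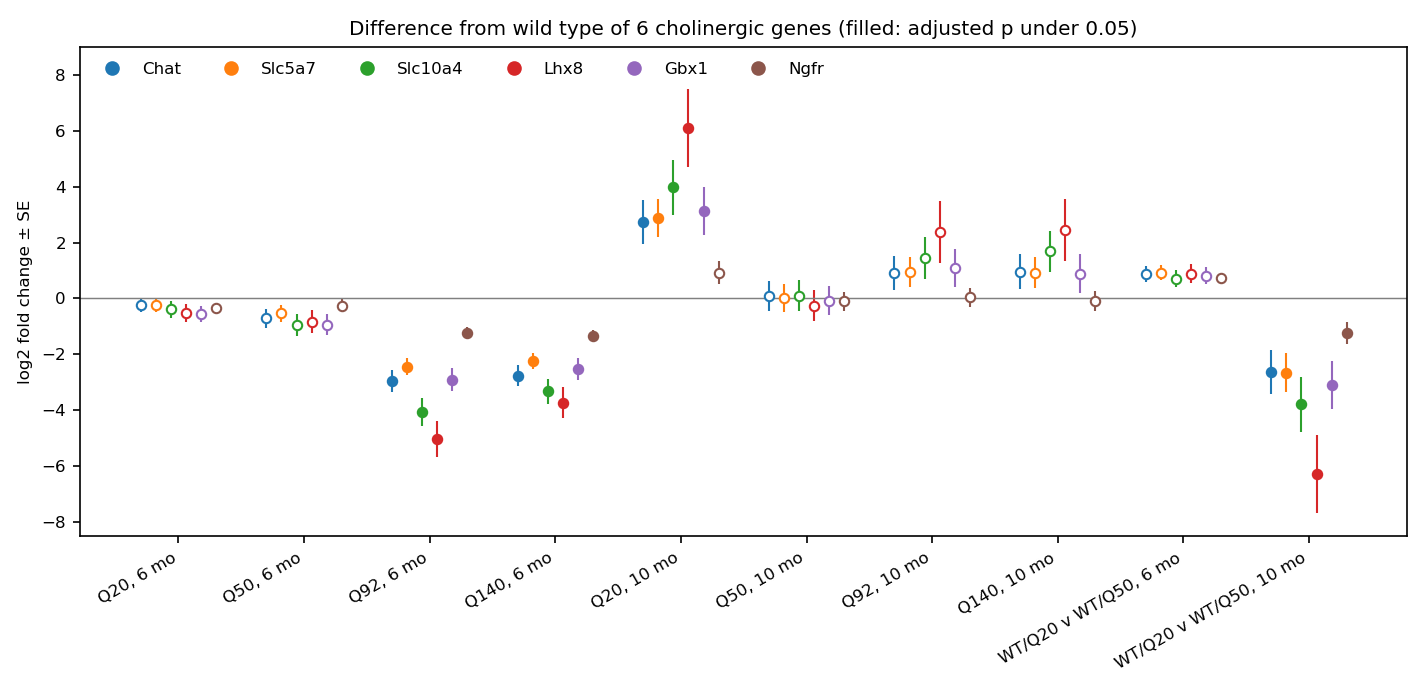
Log2 fold change with its SE (y axis) of the 6 genes in the 10 comparisons named on the x axis, with filled points for an adjusted p under 0.05. Q20 and Q50 are set against the wild types of their own cages, Q92 and Q140 against both wild-type groups, and WT/Q20 v WT/Q50 are the wild types housed with Q20 against those housed with Q50. All 6 genes lie between -1.25 and -5.03 in Q92 mice at 6 months, and Ngfr has the smallest called change in every comparison where it is called.

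Q92 and Q140 mice themselves had higher levels at 10 than at 6 months as a mean over the sexes, and the females carried most of it. Mean Chat went from 0.398 to 3.58 CPM in Q92 females and from 0.345 to 0.386 CPM in Q92 males. In Q140 mice it went from 0.55 to 3.27 CPM in females and from 0.315 to 0.463 CPM in males. The ages were not tested in each sex, and they may be different batches. In Q92 mice 5 of 6 genes rose (11.3% of all genes did): Chat from 0.372 ± 0.14 to 1.98 ± 2.2 CPM (2.38 ± 0.68, adjusted p = 0.0063) and Slc5a7 from 1.18 ± 0.22 to 5.20 ± 5.4 CPM (2.09 ± 0.55, adjusted p = 0.0029), beside Lhx8, Slc10a4 and Gbx1. In Q140 mice 4 of 6 rose (7.05% of all genes did), among them Chat by 2.25 ± 0.68 (adjusted p = 0.015) and Slc10a4 by 2.71 ± 0.76 (adjusted p = 0.0082). In all of these the ranges overlapped, since part of the 10-month libraries were as low as those at 6 months. Without replicate 2 of every group the count in Q92 mice was 2, and in Q140 mice it was 2 without replicate 1 and 0 without replicate 4. In Q20 mice no member was called between the ages (Chat -0.27 ± 0.42, adjusted p = 0.72, where 6.33% of all genes rose and 9.47% fell). In Q50 mice none was called either (Chat 1.08 ± 0.49, adjusted p = 0.095, where 10.5% rose).

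The difference of a line from wild type was itself tested between the ages. It was higher at 10 than at 6 months for 6 of 6 genes in Q92 mice (5.69% of all genes), for 5 of 6 in Q140 mice (1.17%) and for 5 of 6 in Q20 mice (0.563%). For Chat the shift was 3.86 ± 0.78 in Q92 (adjusted p = 5.0e-04), 3.73 ± 0.78 in Q140 (adjusted p = 0.0061) and 2.96 ± 0.76 in Q20 mice (adjusted p = 0.038). In Q50 mice, whose reference was the other housing group, none was called (Chat 0.80 ± 0.67, adjusted p = 0.90, with 0% of all genes called). The 3 comparisons share wild types, and the fall of the wild types housed with Q20 enters each. The call in Q20 mice ended when any of the 4 replicate numbers was left out of every group, and that in Q140 mice without replicate 3 and without replicate 4.

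At 10 months the split within Q20, Q92 and Q140 mice followed sex. Chat was at 3.14, 4.36, 5.03 and 6.13 CPM in the 4 Q20 males, and at 0.315, 0.526, 0.887 and 1.43 CPM in the 4 Q20 females. In Q92 mice 3 females were high, at 4.36, 4.73 and 4.83 CPM, and the other had 0.392 CPM, while the 4 males had 0.281, 0.297, 0.470 and 0.497 CPM. In Q140 mice the 4 females had 2.08, 2.44, 3.70 and 4.86 CPM and the 3 males 0.284, 0.506 and 0.598 CPM. Males were thus the high libraries of the Q20 line, and females those of the Q92 and Q140 lines. The comparison of females with males within a line was added after these values were seen, so its p-values are no separate support.

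In Q20 mice 3 of 6 genes were lower in females (0.763% of all genes): Chat by -2.54 ± 0.62 (adjusted p = 0.035), Slc5a7 by -2.16 ± 0.56 (adjusted p = 0.046) and Slc10a4 by -2.65 ± 0.63 (adjusted p = 0.031). Lhx8, Gbx1 and Ngfr had -3.04 ± 0.83, -2.01 ± 0.62 and -1.32 ± 0.43, with adjusted p of 0.057, 0.10 and 0.13. All 6 ranges were apart, as were those of 4.74% of all genes in this direction. The 3 calls ended without Q20_10mo_Female replicate 1, 3 or 4, without Q20_10mo_Male replicate 1 or 4, and with that L code as a factor. In Q92 mice the values were of the other sign and not called, from 1.41 ± 0.46 (Ngfr, adjusted p = 0.23) to 4.17 ± 1.1 (Lhx8, adjusted p = 0.13), where 0.0786% of all genes were called higher. Without Q92_10mo_Female replicate 3, the low female, 5 genes were called higher, while leaving out any of 7 libraries of other groups gave 1 or 2 calls. In Q140 mice, where no range of the 4 females met that of the 3 males (5.89% of all genes in this direction), they ran from 1.64 ± 0.54 (Ngfr, adjusted p = 0.38) to 4.66 ± 1.4 (Lhx8, adjusted p = 0.30), where 0.0618% were called higher. Whether the sexes differ by line was not tested. Chat in the other 10-month groups differed by -0.39 ± 0.52 (Q50), -0.20 ± 1.2 (wild types housed with Q20) and 0.24 ± 0.53 (wild types housed with Q50), and over all lines by 0.21 ± 0.35 (adjusted p = 0.81, with 1.76% of all genes lower in females and 1.73% higher). At 6 months no member was called between the sexes over all lines (Chat 0.04, adjusted p = 0.96; 1.09% of all genes lower and 1.28% higher).

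The CAG slope at 10 months was also fitted in each sex alone. Over the 4 lines Chat fell in males by 3.47 ± 0.46 per 100 repeats (adjusted p = 0.0012), Slc5a7 by 3.12 ± 0.32 (adjusted p = 0.00023) and Ngfr by 1.93 ± 0.33 (adjusted p = 0.0046). All 6 genes were called lower in males alone, where 1.95% of all genes were. Mean Chat in these males was 4.66 CPM in Q20, 3.17 in Q50, 0.386 in Q92 and 0.463 CPM in Q140 mice. This slope, too, does not stand for an even grading. Wild-type males of that age had 0.444 CPM when housed with Q20 and 2.41 CPM when housed with Q50. In females alone Chat had a slope of 1.22 ± 0.49 (adjusted p = 0.42) and none was called (0.111% of all genes were called lower). The difference between the sexes in this slope was not tested.

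The members did not change in proportion to each other. The log2 ratio of Ngfr to Chat in a library was 0.23 ± 0.29 (SD) in the 16 wild types at 6 months, 2.03 ± 0.77 in the 8 Q92 and 1.88 ± 1.0 in the 8 Q140 libraries. These ratios were chosen after the unequal fold changes were seen, and 9 were tested together. Their p-values restate those fold changes and are no separate support. In an exact two-sided permutation test the difference from wild type was 1.79 in Q92 (exact p = 2.7e-06, the smallest these groups can give, adjusted p = 1.2e-05) and 1.65 in Q140 mice (exact p = 7.6e-05, adjusted p = 0.00017). Slc5a7 to Chat shifted less, by 0.57 in Q92 (exact permutation test, adjusted p = 0.00088) and 0.72 in Q140 mice (exact permutation test, adjusted p = 0.0027). Between the wild types of the 2 housings at 10 months Ngfr to Chat differed by 1.16 (exact permutation test, adjusted p = 0.015), and Slc5a7 to Chat by -0.01 (exact permutation test, adjusted p = 0.97). Ngfr to Slc5a7 differed by 1.22 in Q92 mice, 0.92 in Q140 mice and 1.17 between the housings (exact permutation test, adjusted p of 1.2e-05, 7.3e-05 and 0.0028). Relative to Chat, Ngfr was thus higher in each of these 3 low groups. The shift of Slc5a7 was seen in the knock-in lines and not called between the wild types.

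Other genes that act on acetylcholine, in these neurons or in other cells, had an r of 0.68 with the members over the 95 libraries. Of the 27 measured genes for its breakdown, transport and receptors, 4 were lower and 3 higher in Q92 mice at 6 months, where 4.53% of all genes were lower and 3.3% higher. The median log2 difference was -0.07, against 0.004 over all genes. Ache, acetylcholinesterase, fell by 0.22 ± 0.051 (adjusted p = 0.0029) from 55.6 ± 5.3 to 47.7 ± 3.2 CPM, and Chrna2, a nicotinic receptor subunit, fell by 0.84 ± 0.18 (adjusted p = 0.00098). Chrnb3, another subunit, rose by 0.44 ± 0.10 (adjusted p = 0.0041) and Slc44a1, a choline transporter of many cell types, by 0.09 ± 0.021 (adjusted p = 0.0022). In Q140 mice 2 of 27 were called, both lower: Ache by -0.22 ± 0.051 (adjusted p = 0.0061) and Chrna2 by -0.70 ± 0.17 (adjusted p = 0.012). The summed level of the list was 1060 to 1150 CPM in Q92 and 1080 to 1140 CPM in Q140 mice, within the 1040 to 1140 CPM of both wild-type groups but for the top of Q92. Between the housings at 10 months 3 were lower and 1 higher, the last being Chrm1, the main muscarinic receptor gene of the cortex, by 0.17 ± 0.045 (adjusted p = 0.016, 160 ± 9.9 against 142 ± 11 CPM).

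Among genes for neurotrophins and their receptors, the list of 9 had a median log2 difference of -0.02 in both Q92 and Q140 mice at 6 months. Its mean log2 level nevertheless followed that of the members, with an r of 0.92 over the 95 libraries. Sorcs2, a sortilin-family receptor gene, fell by 0.14 ± 0.041 in Q92 mice (adjusted p = 0.028), from 49.6 ± 2.4 to 45.2 ± 4.8 CPM, with overlapping ranges. Bdnf and Ntrk2, which cortical neurons make themselves, were not called in Q92 or Q140 mice at 6 months.

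Markers of neighbouring brain regions moved with the members. The members and all lists were chosen with earlier results of these data known, so counts within a list are no separate support. Of 15 striatal projection neuron genes 15 were lower in Q92 (median -0.85) and 15 in Q140 mice (median -0.98) at 6 months. Of all genes, 4.53% were called lower in Q92 and 2.13% in Q140 mice. Penk, the enkephalin precursor gene, fell by 1.69 ± 0.17 (adjusted p = 1.8e-08) from 117 ± 31 to 35.7 ± 5.1 CPM in Q92 mice, and Drd1, a dopamine receptor gene, by 1.12 ± 0.13 (adjusted p = 8.5e-08). The summed level of this list was 656 to 774 CPM in Q92 and 649 to 874 CPM in Q140 mice, against 1200 to 1780 CPM and 869 to 1180 CPM in wild types housed with Q20 and Q50. At 10 months it was 660 to 839 CPM in the wild types housed with Q20, with 14 of 15 genes lower than in those housed with Q50 (median 1130 CPM), and 14 of 15 were higher in Q20 mice (678 to 2310 CPM). Of all genes, 3.63% were called lower between these housings and 2.56% higher in Q20 mice. The striatal list was above 0 in every library. Its mean log2 level had an r of 0.91 with that of the members over the 95 libraries.

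Other lists of regions outside the cerebral cortex did likewise, the olfactory bulb list less closely. Of 15 ventral forebrain developmental factors 13 were lower in Q92 and 11 in Q140 mice at 6 months, 9 in the wild types housed with Q20 at 10 months, and 7 were higher in Q20 mice. Isl1 fell by 4.27 ± 0.52 in Q92 mice (adjusted p = 5.7e-07, 0.120 ± 0.099 against 2.53 ± 1.1 CPM) and Six3, a factor of striatal precursors, by 3.12 ± 0.43 (adjusted p = 3.3e-06). The summed level was 147 to 158 CPM in Q92 and 141 to 175 in Q140 mice against 167 to 299 CPM in wild types of that age, and r with the members was 0.97. Of 16 septal, pallidal and hypothalamic genes 11 and 6 were lower in Q92 and Q140 mice, among them Nts, the neurotensin precursor gene (-2.28 ± 0.31 in Q92, adjusted p = 3.2e-06), with sums of 58.4 to 69.7 and 57.7 to 74.1 CPM against 65.7 to 98.3 CPM. Of 10 olfactory bulb genes 8 were lower in Q92 and 3 in Q140 mice, and r of that list with the members was 0.67. Eomes, a factor of bulb projection neurons that had no count in 7 of 95 libraries, had -4.85 ± 1.3 in Q92 mice (adjusted p = 0.010). The shares of all genes called in these comparisons are those given for the striatal list. The part of these regions in the members' differences was not tested.

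Markers of cells within the cortex followed the members less closely or went the other way. The 14 excitatory neuron genes had an r of -0.68 with the members, and 6 were higher and 1 lower in Q92 mice (median 0.18), with sums of 2130 to 2250 CPM against 1840 to 2200 CPM in wild types. Tbr1 rose by 0.21 ± 0.043 (adjusted p = 0.00094), and Bcl11b, which striatal neurons also express, fell by 0.47 ± 0.063 (adjusted p = 1.4e-06). The 12 genes of Vip-type interneurons had an r of 0.55 with the members. Of these, Vip rose by 0.22 ± 0.056 in Q92 mice (adjusted p = 0.0080, 42.4 ± 4.1 against 36.6 ± 3.9 CPM), Calb2 (also a bulb gene), Sncg and Vipr2 fell, and none of the 12 was called in Q140 mice. Vip was also higher, by 0.29 ± 0.066, in the 10-month wild types housed with Q20 (adjusted p = 0.0059), where the members were lowest, and lower by -0.33 ± 0.066 in Q20 mice (adjusted p = 0.0093). The sum of this list was 296 to 388 CPM in Q92 mice and 295 to 346 CPM in wild types of 6 months. Markers of habenular and hindbrain cholinergic neurons differed widely in level. Mnx1, Hoxb3 and Isl2 had no count in 88, 82 and 63 of 95 libraries, while Nwd2 and Lrrc55 had medians of 62.8 and 22.8 CPM. Of the 4 tested genes of that list none was called in Q92 or Q140 mice at 6 months, and its r with the members was 0.02.

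Choroid plexus and vessel markers were read for tissue differences of other kinds. Choroid plexus genes were higher in Q140 mice (5 of 10; Ttr, transthyretin, by 3.42 ± 0.84, adjusted p = 0.013) and Q92 mice (2 of 10). Their sum ran from 22.7 to 1440 CPM in Q92 and from 18.4 to 2740 CPM in Q140 mice, against 24.2 to 1150 CPM in wild types, and its r with the members was -0.01. Pericyte, smooth muscle and Schwann cell genes, which could add Ngfr, had an r of 0.20 with the members, and 2 of 8 were lower in Q92 mice: Myh11 by -0.50 ± 0.14 (adjusted p = 0.018) and Tagln by -0.47 ± 0.15 (adjusted p = 0.046). Of 12 meningeal fibroblast genes, 7 were lower in the 10-month wild types housed with Q20 than in those housed with Q50, with Col3a1 at -0.94 ± 0.21 (adjusted p = 0.0056), and none was called in Q92 or Q140 mice at 6 months. The part of these cells in the members' differences was not tested.

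**Figure D4:**
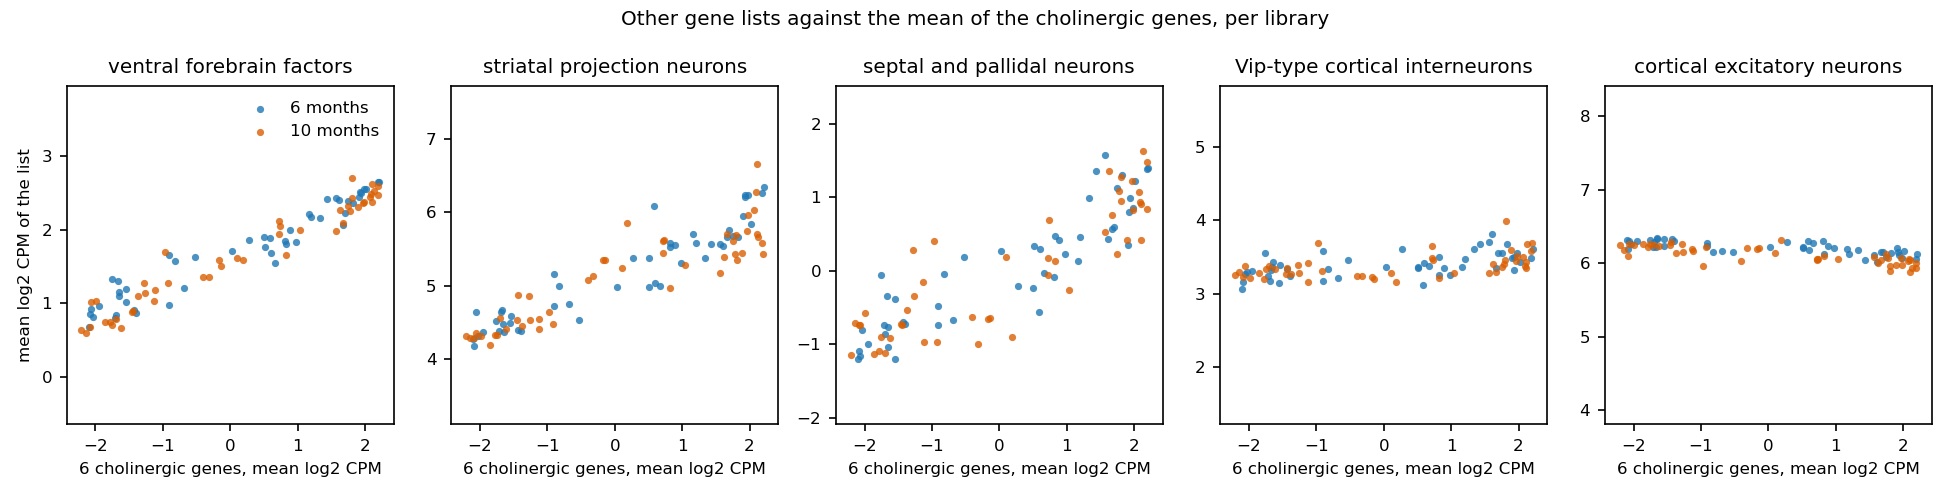
Each point is 1 of the 95 libraries, with the mean log2 CPM of the 6 cholinergic genes on the x axis and that of the list above the panel on the y axis (all panels span the same number of log2 units), coloured by age. The panel headed septal and pallidal neurons shows the list of septal, pallidal and hypothalamic genes. The ventral forebrain and striatal lists and that mixed list follow the members (r of 0.97, 0.91 and 0.88). The Vip-type list does so less (0.55), and the cortical excitatory list is lower where the members are higher (-0.68).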

How the data were processed

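Per the submitters' processing notes, base calling used CASAVA 1.8.2. Aligner, counting tool, genome build and strand use: not given in the sources used here. The authors deposited estimated counts per gene (67% of nonzero values whole) and FPKM scaled by length and depth. The 37607 identifiers with a symbol were paired through the reference tables. Estimated counts were rounded and fitted with edgeR 4.0.16 in R 4.3.3 (filterByExpr on line by sex, minimum count 10, total 15; TMM; robust quasi-likelihood test; sex as covariate). Each age had its own fit (17716 and 17813 genes), and age differences came from 1 fit of 95 libraries (17753 genes). The test was checked on simulated data. Adjusted p-values are Benjamini-Hochberg over all genes. Alternatives used DESeq2 1.42.0, limma 3.58.1 on log2(FPKM + 0.1) or log2(FPKM + 1), other filters, blocks, single sexes, single references and left-out libraries. Permutation tests used scipy 1.17.1. Members and lists were chosen with earlier results of these data known. Other genes named are, of each list, up to 4 called genes with the smallest p, and the 10 most correlated with the members. Bdnf, Ntrk2, Slc17a7, Tbr1, Nwd2, Lrrc55 and the listed genes at 0 were named as background. Counts limit precision through their number, from 0 to 532 per library for the members. Slc18a3 was not analysed here, and results of some genes that the rule names are not reported here.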

Additional observations from a re-analysis of the deposited data

Results flagged for a closer look

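Of 138 sets of 1 gene in 1 group of 4 libraries, 11 had a library that stood apart from the other three by Dixon's test on log2 CPM, and chance flags about 1 in 20 (6.9). Of them, 5 are Q92_10mo_Female replicate 3, which was low beside the other 3 Q92 females of that age: 0.392 CPM of Chat against 4.36 to 4.83, 0.686 of Slc5a7 against 10.8 to 12.8, 0.163 of Slc10a4 against 2.77 to 4.36, 0 of Lhx8 against 2.08 to 3.31 and 0.131 of Gbx1 against 1.45 to 2.11. Ngfr was high in WTwithQ20_6mo_Female replicate 4 (6.22 CPM, others at most 4.24) and low in WTwithQ20_6mo_Male replicate 4 (2.96 CPM, others at least 4.55). Slc5a7 was low in Q92_6mo_Female replicate 4 (0.894 CPM, others at least 1.29) and WTwithQ20_10mo_Male replicate 4 (0.674 CPM, others at least 1.22). For Lhx8, Q140_6mo_Male replicate 1 and WTwithQ20_10mo_Male replicate 3 had 0.0289 and 0.0285 CPM, a single count, where the other 3 had none.

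The difference of a line from wild type changed between 6 and 10 months for 16 combinations of gene and line, by the interaction in edgeR's quasi-likelihood test. In Q20 mice the log2 shifts were 2.96 for Chat, 3.13 for Slc5a7, 6.60 for Lhx8, 4.36 for Slc10a4 and 3.69 for Gbx1 (adjusted p of 0.018 to 0.038). In Q92 mice they were 3.86 for Chat, 3.40 for Slc5a7, 7.41 for Lhx8, 5.51 for Slc10a4, 3.99 for Gbx1 and 1.28 for Ngfr (adjusted p of 8.8e-05 to 0.033). In Q140 mice they were 3.73 for Chat, 3.16 for Slc5a7, 6.18 for Lhx8, 5.01 for Slc10a4 and 3.43 for Gbx1 (adjusted p of 0.0025 to 0.019). All were upward, and all share wild types whose own levels changed with age.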

How the results depend on the processing

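No fold change that was called, in the reported fit or under a setting, changed its sign between them; values called in neither changed sign 228 times. The number of members called in Q92 mice at 6 months was 6 under all settings, leaving out each library included. With females alone it was 0 for Q140 and for the CAG slope at 6 months, 0 for Q20 and for the contrast of the housings at 10 months, and with males alone it was 6 for the slope at 10 months. From log2(FPKM + 1) it was 0 for Q20 and 0 for the housings at 10 months; from log2(FPKM + 0.1) it was 2 for Q20, and without a filter 0 and 3. For Q20 at 10 months it was 0 with the L code and 3 with no filter on low counts. Against wild types housed with Q20 alone it was 3 for Q92 and 2 for Q140 at 10 months. For females against males within a line at 10 months it was 0 in Q20 with the L code or with no filter, 2 in Q140 by DESeq2's Wald test, and 4 in Q92 by that test and 2 with the L code. The cause was not tested. Leaving out 1 library at a time gave 0 to 5 for Q20 at 10 months, 3 to 6 for the housings, 0 to 4 for the sexes in Q20 and 0 to 5 for the sexes in Q92. Leaving out a replicate number gave 0 to 3 for age in Q140 mice, 2 to 5 for age in Q92, and 0 to 5 for the shift in Q140 and 0 to 0 for that in Q20. With the replicate number as a block, the number called was 6 for Q92 and 6 for Q140 at 6 months, and 5 for the housings and 5 for Q20 at 10 months; the block changed no count by over 1.5 times. Pairs of same-numbered libraries had a median r of 0.006 at 6 and -0.006 at 10 months. The r ran from -0.48 to 0.44 at 6 and from -0.39 to 0.34 at 10 months. It was over 0.1 in 37 of 264 and 37 of 253 pairs. The numbers thus showed no general pairing, and these values cannot exclude pairing of some libraries. Without the 2 libraries over 13% mitochondrial counts, chosen after seeing the data, all counts at 6 months were the same. Over all genes the number called moved further: for Q92 at 6 months it lay between 433 (males alone) and 1693 against 1387, for Q140 between 3 (females alone) and 1016 against 624, for the housings at 10 months between 285 (females alone) and 1755 against 1252, and for Q20 between 1 (females alone) and 2332 (males alone) against 775. Depth limits Lhx8 most, with 3 or fewer counts in 30 libraries, then Slc10a4 and Gbx1, in 11 and 10.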
